A study of Mus musculus with 4 samples.

Results

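The genes described are 54 genes of mitosis: motor kinesins, kinetochore and checkpoint proteins, mitotic kinases and cyclins, the chromosomal passenger complex, the anaphase machinery, spindle and cytokinesis proteins, and condensin with other chromosome proteins. They were taken by symbol from a list of mitosis genes, and all 54 were found among the 24062 genes of the deposited count table. That list was chosen with earlier results of these data known, so its differences from all genes may partly follow from the choice. The sequenced RNA came from gBT-I cells, which are CD8+ T cells with a transgenic receptor for a herpes simplex virus peptide (from its glycoprotein B). Both groups received cells of the same kind: splenocytes of specific pathogen free (SPF) gBT-I donors, activated in culture with that peptide and LPS, given IL-1, and injected intravenously on culture day 4. The recipients were C57BL/6 mice, which were SPF in one group and germ free (GF) in the other, and the gBT-I cells were recovered from the spleen by enrichment and sorting 7 days later. Each group had 2 libraries, called SPF replicates 1 and 2 and GF replicates 1 and 2 here, with totals of 11544960, 14026051, 14219354 and 14431533 counts. The age of the mice and the number pooled per library are not given in the labels, so p-values reflect the spread between these libraries and no more, which may be technical.

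During mitosis, condensin compacts the chromosomes and kinesin motors slide and separate the microtubules of the spindle. Kinetochores tie each chromosome to those microtubules and hold the checkpoint active until all are attached. The anaphase promoting complex with Cdc20 then marks securin and cyclin B for destruction, which frees separase to open the sister chromatids. Most of these transcripts are made late in the cell cycle and are low in resting T cells.

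The 9 T cell markers checked were present in every library, with Cd8a at 932 and 790 counts scaled to library size (CPM) in the SPF libraries and 991 and 940 in the GF libraries. B cell markers followed the replicate number: their 13 genes summed to 121 CPM in SPF replicate 1, 28.8 in SPF replicate 2, 145 in GF replicate 1 and 31.8 in GF replicate 2, with Ms4a1 and Pax5 at 0 in both replicates 2. Cd79b was the most abundant of them, at 45.2, 23.2, 41.3 and 26.4 CPM in that order of libraries. Sums of other marker lists were 0.494 to 3.35 CPM for plasma cells, 1.23 to 3.23 for erythroid cells, 7.70 to 10.9 for macrophages and monocytes, and at most 0.961 for neutrophils. NK cell markers were lower in GF: their 5 genes summed to 62.6 and 45.1 CPM in SPF and 36.8 and 33.7 in GF, nearly all Klrb1c and Fcer1g (log2 fold changes -0.51 and -1.29), with Klra8 and Klra4 at 0. CD4 and regulatory T cell markers summed to 112.5 and 128 CPM in SPF and 79.6 and 112 in GF, with Cd4 at 0.524 CPM or less. Progenitor and mast cell markers summed to 3.58 and 1.98 CPM in SPF and 1.09 and 1.36 in GF, mostly Cpa3 (log2 fold change -1.5), with Gata2 and Mcpt8 at 0. Kit went the other way, with 1 and 1 counts in SPF and 2 and 5 in GF, and Cd34 had 1 count, in GF replicate 1. None of these genes passed the adjusted threshold, and the part of any of these cells in the mitotic values was not tested. Dendritic cell markers summed to 401 and 704 CPM in SPF and 760 and 1019 in GF, nearly all of it Itgax. Itgax had 380 and 691 CPM in SPF and 740 and 1004 in GF (log2 fold change 0.70, SE 0.37). It did not pass the adjusted threshold either, and any relation to the mitotic values was not tested.

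Of the 54 mitotic genes, 43 had a higher mean CPM in GF than in SPF libraries, where 52% of the 15353 genes with a count did. Both GF libraries lay above both SPF libraries for 27 of the 54 (50%), compared with 16.3% of genes with a count, and both lay below them for Smc2 alone, compared with 14.2%. GF replicate 1 was the highest of the 4 libraries for 39 of the 54 genes, compared with 19.8% of genes with a count. GF replicate 2 was the highest for 6, SPF replicate 1 for 6 and SPF replicate 2 for 3.

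Counts were compared with edgeR's quasi-likelihood test over 11271 genes that passed a filter on low counts, with a Benjamini-Hochberg threshold of 0.05. The filter kept 47 of the 54 genes. Of these, Cenpf, Espl1 and Hmmr passed only through the GF libraries and so had to differ. Aspm had 1 SPF library past the minimum and was kept with the help of its GF counts. No mitotic gene passed the threshold: 0% of all tested genes did in either direction, and adjusted p ran from 0.855 to 0.997 over the 47. At an unadjusted p under 0.05, 14 of the 47 were higher in GF and 0 lower, where 2.17% and 1.05% of all tested genes were. Those 14 include Cenpf, Espl1 and Hmmr; of the other 44 tested genes, 11 were higher and 0 lower. The median log2 fold change was 0.56 over the 47, 0.47 over those other 44 and -0.00 over all tested genes. Without the filter it was 0.71 over the 54, which adds genes low in SPF, and 0.01 over all genes with a count. Because the genes were chosen with earlier results known, these shares and medians beside those of all genes may partly follow from that choice. DESeq2 called Mki67 (adjusted p = 0.0393), where 0.071% of genes were called higher and 0.00887% lower. The edgeR exact test, with the same shares of genes called, and limma-voom, with 0%, called no mitotic gene. Without SPF replicate 1, Mki67 alone passed the edgeR threshold, where 0.129% of genes were called higher and 0.0173% lower. Without SPF replicate 2, Foxm1, Mki67 and Top2a passed as higher and Pttg1 as lower, where 6.77% and 4.7% of genes were called in those directions. Without either GF library, no gene passed. A permutation test of 2 libraries against 2 cannot give an exact p below 0.33. In bulk RNA, a different share of dividing cells and a different amount of mitotic RNA per cell cannot be told apart.

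**Figure D1:**
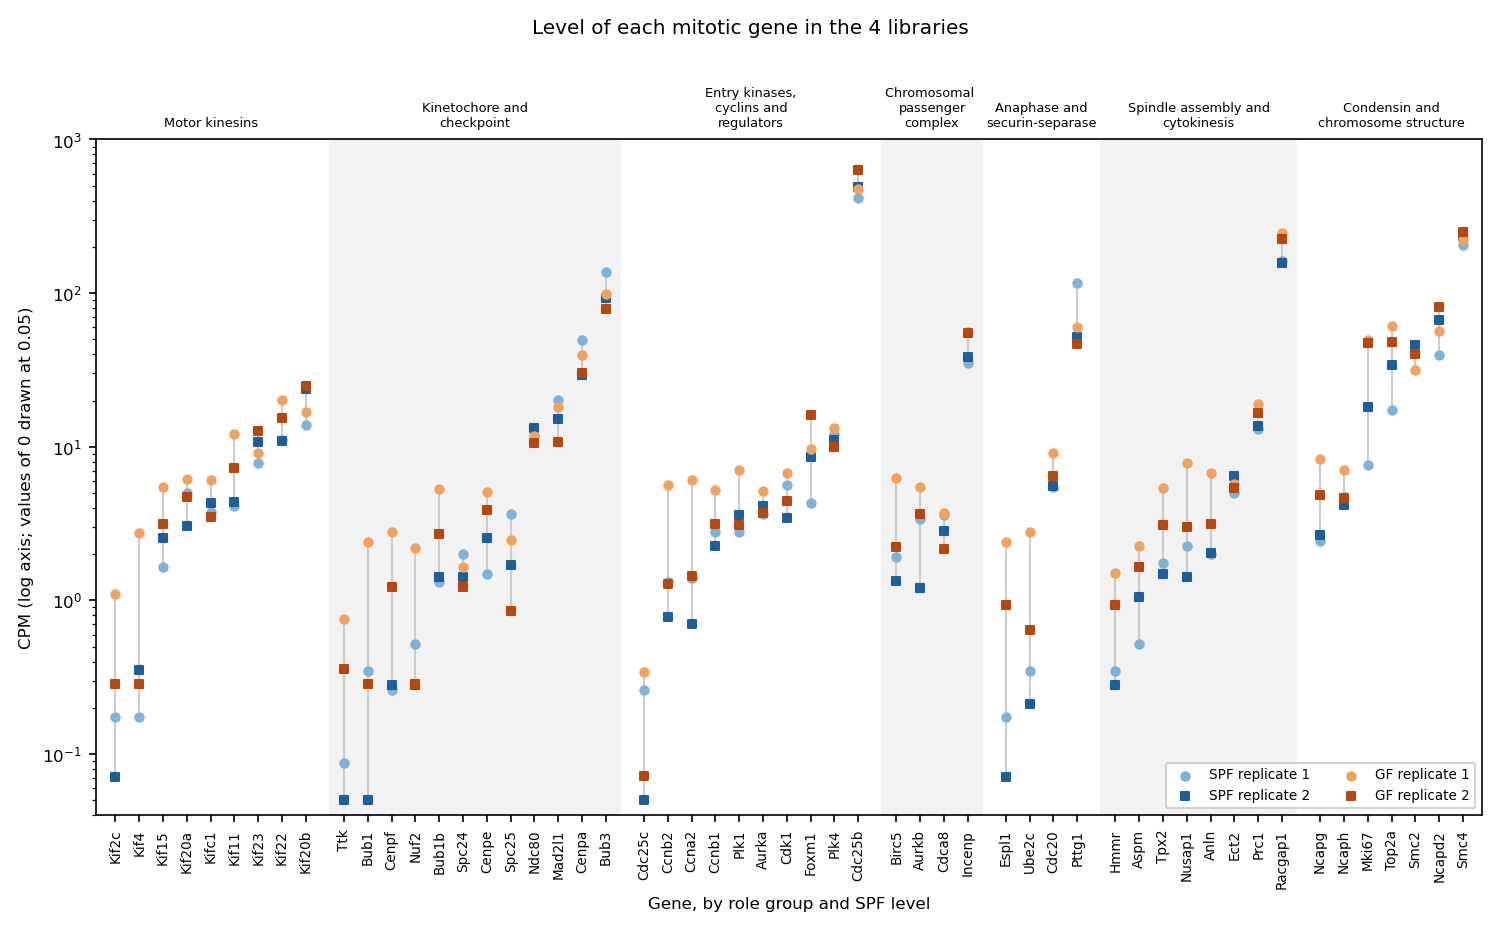
CPM of each of the 54 genes (log axis, values of 0 drawn at 0.05) in the SPF (blue) and GF (orange) libraries, where circles are replicates 1 and squares replicates 2, by role group and ordered by the SPF level. GF replicate 1 is the top point for 39 genes, and the GF points lie above both SPF points for 27.

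The excess in GF was unequal between the GF libraries. On the log2(CPM + 0.2) scale the median difference over the 54 genes was 0.79 between GF and SPF replicates 1 and 0.44 between GF and SPF replicates 2. GF replicate 1 exceeded GF replicate 2 by a median of 0.58, and SPF replicate 2 differed from SPF replicate 1 by a median of -0.03. The GF libraries thus differed from each other, at the median, by more than the GF and SPF replicates 2 did. Of the 54 genes, 47 were higher in GF replicate 1 than in SPF replicate 1, 40 were higher in GF than in SPF replicate 2, and 47 were higher in GF replicate 1 than in GF replicate 2. Of all genes with a count, 50.3%, 49.2% and 48.6% did so in these pairs of libraries. B cell markers were also highest in GF replicate 1, for 12 of 13 genes, and their part in the mitotic values was not tested.

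**Figure D2:**
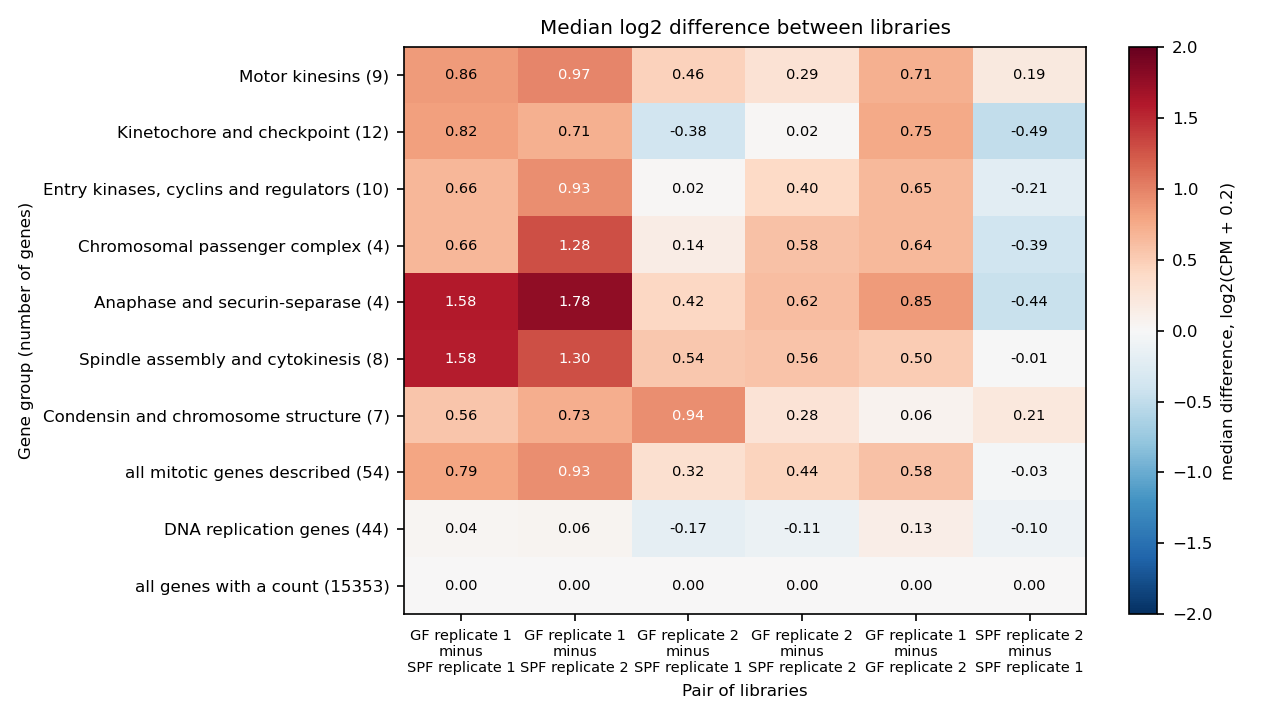
Median log2(CPM + 0.2) difference for 6 pairs of libraries (columns) in each role group, in all 54 mitotic genes, in 44 DNA replication genes and in all genes with a count (rows; number of genes in brackets). In the row of all 54 genes the columns that start with GF replicate 1 are the highest, while the DNA replication row lies between -0.17 and 0.13.

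Levels per kilobase of transcript spanned a wide range. Over the SPF libraries the highest mean was that of Cdc25b, a phosphatase that activates mitotic cyclin-dependent kinase, at 147 CPM per kb. Securin (Pttg1) followed at 89.1 CPM per kb, then Racgap1 at 52.3, the checkpoint protein Bub3 at 52.2 and the condensin ATPase Smc4 at 51.1. The lowest levels were those of Cenpf at 0.0245 CPM per kb, separase (Espl1) at 0.0184 and the checkpoint kinase Ttk at 0.0152. Because 10 genes, described by their counts, were singled out for a mean of 10 counts or fewer in SPF, their higher means in GF are partly fixed by that choice. Of the other 44 genes, 33 had a higher mean in GF. For 21 of those 44 both GF libraries lay above both SPF libraries, compared with 16.3% of genes with a count.

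Promoters are shown because late cell cycle genes are known for shared elements near the start site: the CHR element, whose usual form is TTTGAA, and CCAAT boxes. RefSeq promoter windows (GRCm38.p6), from 250 bases before to 50 bases after the start, matched 45 of the 54 genes in 48 windows. The following lines give the 250 bases before the start, 5′ to 3′ on the strand of the gene, with TTTGAA and CCAAT on either strand (TTCAAA and ATTGG on the other) in capitals. The first 5 genes are examples with a higher mean in GF, and Bub3 is an example with a lower mean there. Every printed stretch holds both elements, which only 17 of the 48 windows did over these 250 bases (35.4%, compared with 3.93% for tested genes).
Mki67, chr7:135716380-135716629, minus strand: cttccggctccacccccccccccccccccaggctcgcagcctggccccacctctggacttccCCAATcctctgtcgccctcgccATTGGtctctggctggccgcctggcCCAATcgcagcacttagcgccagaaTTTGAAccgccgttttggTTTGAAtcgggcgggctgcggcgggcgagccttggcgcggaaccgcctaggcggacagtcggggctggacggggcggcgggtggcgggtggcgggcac
Top2a, chr11:99024190-99024439, minus strand: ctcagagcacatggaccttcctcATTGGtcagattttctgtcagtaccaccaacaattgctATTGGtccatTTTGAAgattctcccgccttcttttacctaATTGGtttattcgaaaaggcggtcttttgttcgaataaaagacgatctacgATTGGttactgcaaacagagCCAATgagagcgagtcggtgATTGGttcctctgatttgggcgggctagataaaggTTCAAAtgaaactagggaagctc
Espl1, chr15:102296043-102296292, plus strand: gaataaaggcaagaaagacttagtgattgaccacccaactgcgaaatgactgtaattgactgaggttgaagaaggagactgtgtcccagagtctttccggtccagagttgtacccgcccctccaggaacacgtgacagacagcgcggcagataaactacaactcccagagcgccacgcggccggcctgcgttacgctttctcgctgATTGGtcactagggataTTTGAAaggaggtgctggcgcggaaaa
Kif11, chr19:37376132-37376381, plus strand: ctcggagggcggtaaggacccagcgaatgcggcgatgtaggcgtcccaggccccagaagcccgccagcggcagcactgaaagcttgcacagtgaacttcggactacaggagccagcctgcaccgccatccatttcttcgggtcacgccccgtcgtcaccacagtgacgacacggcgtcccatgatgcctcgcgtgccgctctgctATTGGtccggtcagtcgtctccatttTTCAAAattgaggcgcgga
Ccnb2, chr9:70421555-70421804, minus strand: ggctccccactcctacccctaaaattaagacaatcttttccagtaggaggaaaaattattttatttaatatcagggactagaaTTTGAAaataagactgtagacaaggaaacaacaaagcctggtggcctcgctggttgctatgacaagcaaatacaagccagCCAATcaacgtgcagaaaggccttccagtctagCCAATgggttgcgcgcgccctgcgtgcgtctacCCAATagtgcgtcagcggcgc
Bub3, chr7:131560120-131560369, plus strand: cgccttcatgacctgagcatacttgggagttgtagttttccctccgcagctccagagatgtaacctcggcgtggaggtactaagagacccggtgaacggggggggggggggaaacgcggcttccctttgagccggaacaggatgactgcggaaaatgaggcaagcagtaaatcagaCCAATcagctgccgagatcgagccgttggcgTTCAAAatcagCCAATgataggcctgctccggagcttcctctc
In Mki67 the TTTGAA matches began 116 and 98 bases before the start, and in Espl1 the single match began 27 bases before it, with CCAAT at 44 bases. Bub3, whose mean was lower in GF, held the same elements, with TTTGAA at 43 bases and CCAAT at 74 and 32 bases before the start. TTTGAA was found on either strand in 37 of the 48 full windows (77.1%), compared with 11.9% of 10809 windows of tested genes, and CCAAT in 36 (75%), compared with 37.8%. Both occurred together in 32 windows (66.7%), compared with 4.78%. Within 50 bases of the start on either side, 33 windows (68.8%) held TTTGAA, compared with 3.01%. In the 250 bases before the start alone, 19 windows held TTTGAA (39.6%, compared with 10.5%) and 10 held neither element. Those 10 were the windows of Nuf2, Nusap1, Anln, Birc5, Ncaph and Kif20b, which had higher means in GF, and of Plk4, Ndc80, Mad2l1 and Pttg1, which had lower means. A match is a description of these letters, not of a bound site.

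The motor kinesins all had a higher mean in GF, 9 of 9, and for 4 of them each GF library lay above each SPF library, compared with 16.3% of genes with a count. The median log2 fold change over the 7 tested was 0.44; it was 0.69 without the filter and 0.71 without SPF replicate 1. Kif11, the plus-end motor that pushes the spindle poles apart, stood at 4.11 and 4.38 CPM in the SPF libraries and at 12.1 and 7.30 in the GF libraries. Its GF values lay clear of its SPF values, with a log2 fold change of 1.19 (SE 0.38, edgeR unadjusted p = 0.0233). Kif15, which backs up Kif11 on the spindle, had 1.66 and 2.54 CPM in SPF and 5.46 and 3.15 in GF, a log2 fold change of 1.03 (SE 0.48). Kif22, a chromosome-arm motor, had 11.1 and 10.9 CPM in SPF and 20.3 and 15.3 in GF, a log2 fold change of 0.70 (SE 0.28). In both genes the GF libraries were above the SPF libraries, with GF replicate 1 highest. Kif20a, a motor of the central spindle in cytokinesis, had 4.98 and 3.04 CPM in SPF and 6.15 and 4.72 in GF, so that its groups overlapped (log2 fold change 0.44, SE 0.41). Its exons overlap those of antisense Cdc23 over 1271 bases, and the library kit did not mark strand, so reads there cannot be assigned to either gene. Kifc1, Kif23 and Kif20b overlapped between groups, with log2 fold changes of 0.25, 0.22 and 0.16, and Kifc1 has a near-identical copy, Kifc5b, between which reads may have been split.

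Kif2c, the microtubule-depolymerising kinesin of the centromere, had 2 and 1 counts in SPF and 16 and 4 in GF. Summed over libraries and scaled to depth this was a GF to SPF ratio of 5.97, with an exact 95% interval of 1.77 to 31.3. For GF replicate 2 alone against the SPF libraries the ratio was 2.44 (0.413 to 16.7). Kif4, a chromokinesin that works with condensin, had 2 and 5 counts in SPF and 40 and 4 in GF. The excess of Kif4 lay wholly in GF replicate 1: the ratio between the GF libraries was 9.54 (3.45 to 36.7), and GF replicate 2 against the SPF libraries gave 1.05 (0.225 to 4.12). Intervals on counts such as these cover counting error only. Antisense Pdzd11, whose exons overlap Kif4 over 832 bases, had 255 and 203 counts in SPF and 271 and 205 in GF.

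The kinetochore and checkpoint genes were split. Of 12, 6 had a higher mean in GF and 6 a lower one, and the median log2 fold change was -0.18 over the 9 tested and, with the opposite sign, 0.48 without the filter. The 3 higher tested genes were Cenpf, Bub1b and Cenpe, and the untested Nuf2, Bub1 and Ttk were the other higher ones. Cenpf, a large kinetochore protein of the outer corona, had 3 and 4 counts in SPF and 41 and 17 in GF. Every Cenpf count in GF exceeded those in SPF, at a ratio of 7.41 (3.38 to 19.3); its log2 fold change of 2.84 (SE 0.69) is a description, since Cenpf passed the filter through GF alone. Bub1b, the checkpoint protein BubR1, had 1.31 and 1.41 CPM in SPF and 5.33 and 2.72 in GF, a log2 fold change of 1.56 (SE 0.50). Cenpe, the kinesin that carries chromosomes to the spindle equator, had 1.48 and 2.54 CPM in SPF and 5.05 and 3.86 in GF, a log2 fold change of 1.13 (SE 0.44). Neither gene overlapped between groups.

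The checkpoint kinase Bub1 had 4 and 0 counts in SPF and 35 and 4 in GF, where a count of 0 allows up to 3 counts, or 0.214 CPM in that library. Nuf2, a subunit of the NDC80 complex that holds microtubules, had 6 and 4 counts in SPF and 32 and 4 in GF. For both genes only GF replicate 1 stood apart: it exceeded GF replicate 2 by 8.35-fold (2.99 to 32.3) for Bub1 and by 7.64-fold (2.71 to 29.7) for Nuf2. Ttk, the kinase Mps1 at the top of the checkpoint, had 1 and 0 counts in SPF and 11 and 5 in GF, a ratio of 14.3 with an interval of 2.22 to 600.4. In Ttk both GF libraries were above both SPF libraries.

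The members of the NDC80 complex differed among themselves. Ndc80 itself had 11.8 and 13.2 CPM in SPF and 11.8 and 10.5 in GF, a log2 fold change of -0.16 (SE 0.27). Spc24 had 2.01 and 1.41 CPM in SPF and 1.64 and 1.22 in GF (-0.25, SE 0.47). Spc25 had 3.67 and 1.70 CPM in SPF and 2.46 and 0.859 in GF (-0.68, SE 0.68). These 3 subunits overlapped between groups, as did Nuf2, whose highest count was in GF. Cenpa, the histone variant that marks the centromere, had 49.7 and 29.5 CPM in SPF and 39.8 and 30.3 in GF (-0.18, SE 0.33). Bub3, which carries Bub1 and BubR1 to the kinetochore, had 138 and 93.3 CPM in SPF and 99.1 and 78.8 in GF (-0.38, SE 0.28). Mad2l1, the inhibitor of Cdc20 in the checkpoint, had 20.2 and 15.1 CPM in SPF and 18.1 and 10.8 in GF (-0.29, SE 0.35). In all 3 the groups overlapped and replicate 1 exceeded replicate 2 within each group. The fold change of Cenpa was 0.25 without SPF replicate 1, and those of Spc24 and Mad2l1 also crossed 0 without 1 library.

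**Figure D3:**
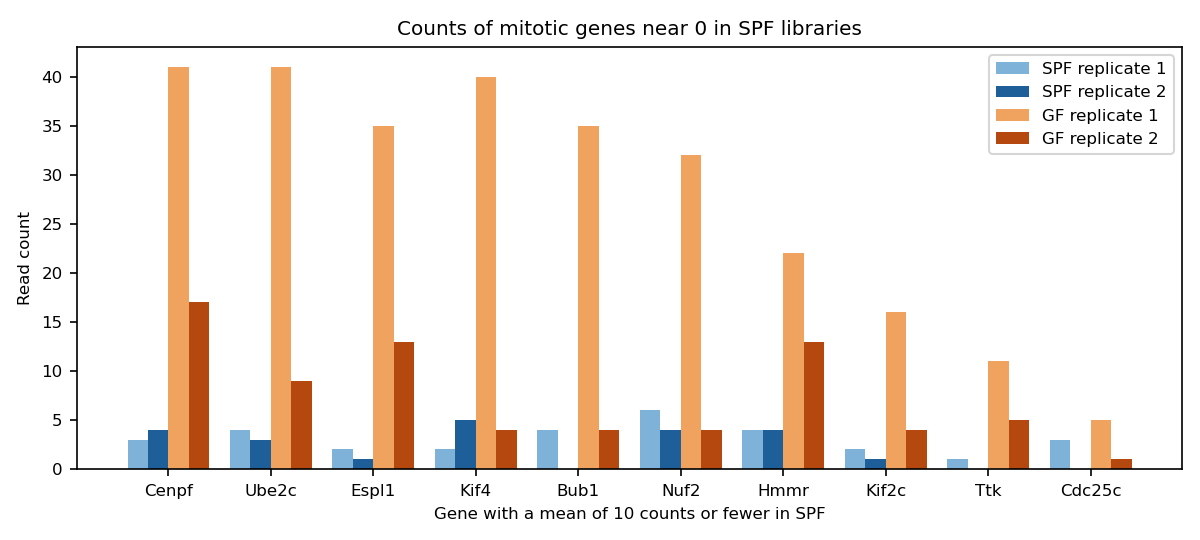
Read counts in the 4 libraries of the 10 mitotic genes with a mean of 10 counts or fewer in SPF, ordered by their sum in GF. GF replicate 1 is the highest bar for all 10, whereas GF replicate 2 has 4 counts for Kif2c, Kif4, Bub1 and Nuf2, close to the SPF bars.

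Among the 10 kinases, cyclins and regulators of mitotic entry, 9 had a higher mean in GF, but both GF libraries lay above both SPF libraries for only 3, Ccna2, Ccnb1 and Foxm1, compared with 16.3% of genes with a count. The median log2 fold change over the 9 tested was 0.66, and 0.31 without GF replicate 1. Cyclin A2 (Ccna2) had 1.40 and 0.706 CPM in SPF and 6.08 and 1.43 in GF, a log2 fold change of 1.85 (SE 0.82). Cyclin B2 (Ccnb2) had 1.31 and 0.777 CPM in SPF and 5.60 and 1.29 in GF (1.73, SE 0.81). Both cyclins were high in GF replicate 1, while GF replicate 2 was at the level of SPF replicate 1. The exons of Ccna2 overlap antisense Exosc9 over 510 bases, which had 347 and 375 counts in SPF and 486 and 361 in GF. Cyclin B1 (Ccnb1), the main partner of Cdk1 at mitotic entry, had 2.80 and 2.26 CPM in SPF and 5.26 and 3.15 in GF (0.74, SE 0.43). Foxm1, the transcription factor that drives many late cell cycle genes, had 4.28 and 8.62 CPM in SPF and 9.70 and 16.03 in GF. Unlike the cyclins, Foxm1 was highest in GF replicate 2, with a log2 fold change of 0.99 (SE 0.47). It was 1.58 without SPF replicate 2.

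Plk1, Cdk1, Cdc25b and Aurka overlapped between groups, with log2 fold changes of 0.66, 0.30, 0.28 and 0.19. Plk4, the kinase of centriole duplication, had 12.1 and 11.1 CPM in SPF and 13.2 and 9.95 in GF, with a log2 fold change of -0.01 (SE 0.29). The phosphatase Cdc25c was near 0 everywhere, with 3 and 0 counts in SPF and 5 and 1 in GF, a ratio of 1.79 whose interval ran from 0.382 to 11.1. Its relative Cdc25b stood between 416 and 630.2 CPM in every library.

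The chromosomal passenger complex, which corrects wrong attachments and guides cytokinesis, had 3 of 4 genes with no SPF library at or above a GF library, where 16.3% of genes with a count had none. The median log2 fold change was 0.79. The 3 were its scaffold, its kinase and survivin. The scaffold Incenp had 35.2 and 38.1 CPM in SPF and 55.9 and 54.7 in GF. Its GF libraries agreed closely, and the log2 fold change was 0.59 (SE 0.20, edgeR unadjusted p = 0.0284). Survivin (Birc5) had 1.92 and 1.34 CPM in SPF and 6.22 and 2.22 in GF (1.37, SE 0.62). The kinase Aurkb had 3.41 and 1.20 CPM in SPF and 5.46 and 3.65 in GF (1.00, SE 0.59). For Birc5 and Aurkb the lower GF library lay just above the higher SPF library. Borealin (Cdca8) had 3.58 and 2.83 CPM in SPF and 3.69 and 2.15 in GF, so that its groups overlapped (-0.13, SE 0.44).

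The 4 anaphase genes included separase and its inhibitor securin, whose fold changes had opposite signs. Separase (Espl1), the protease that opens the cohesin ring, had 2 and 1 counts in SPF and 35 and 13 in GF. Both GF counts were above both SPF counts, at a ratio of 14.3 (4.61 to 71.9); the fitted log2 fold change of 3.71 (SE 0.87) is a description, since the filter kept Espl1 through its GF counts alone. Its inhibitor securin (Pttg1) had 117 and 51.7 CPM in SPF and 59.9 and 46.5 in GF, a log2 fold change of -0.67 (SE 0.42). Here SPF replicate 1 alone stood high: the fold change was 0.04 without it, and -1.15 without SPF replicate 2. Ube2c, the ubiquitin-conjugating enzyme of the anaphase promoting complex, had 4 and 3 counts in SPF and 41 and 9 in GF, a ratio of 6.39 (2.88 to 16.7). With GF replicate 2 alone the ratio of Ube2c was 2.36 (0.781 to 7.44). Antisense Tnnc2, whose exons overlap Ube2c over 592 bases, had at most 2 counts in any library. Cdc20, the activator of that complex, had 5.50 and 5.58 CPM in SPF and 9.15 and 6.44 in GF (0.49, SE 0.34), with both GF libraries above the SPF libraries. The median over the 3 tested genes was 0.49, which was 1.54 over all 4 without the filter and 0.21 over those tested without GF replicate 1. Espl1, kept through GF alone, is among the 3, while Cdc20 and Pttg1 had opposite signs. The sign of this median therefore depends on Espl1. The median without the filter adds Ube2c, which was also singled out for its low SPF counts.

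The spindle assembly and cytokinesis group had the highest median log2 fold change of the 7 role groups over tested genes, 1.28, and 7 of its 8 genes, compared with 16.3% of genes with a count, had groups that did not overlap, higher in GF. Without GF replicate 1 its median was 0.67. Hmmr, a spindle pole protein also known as RHAMM, had 4 and 4 counts in SPF and 22 and 13 in GF, a ratio of 3.91 (1.78 to 9.77); its log2 fold change of 1.93 (SE 0.61) is likewise a description of a gene kept through GF alone. Tpx2, which activates Aurka on the spindle, had 1.75 and 1.48 CPM in SPF and 5.40 and 3.08 in GF (1.39, SE 0.46). Nusap1, which bundles spindle microtubules, had 2.27 and 1.41 CPM in SPF and 7.79 and 3.01 in GF (1.56, SE 0.60). Each GF library was above the SPF libraries in all 3, and GF replicate 1 was highest. Racgap1, the GTPase-activating protein of the central spindle, had 162 and 157 CPM in SPF and 247 and 225 in GF. This abundant gene had a small spread within each group, and its log2 fold change was 0.56 (SE 0.20, edgeR unadjusted p = 0.0333). Anln, Aspm and Prc1 also had both GF libraries above the SPF libraries, with log2 fold changes of 1.29, 1.27 and 0.41. Exons of Nusap1 overlap antisense Oip5 over 172 bases, and those of Prc1 overlap antisense Rccd1 over 911 bases. Ect2, the exchange factor that Racgap1 binds to start the cleavage furrow, had 4.98 and 6.5 CPM in SPF and 5.74 and 5.37 in GF. The GF values of Ect2 lay between its SPF values, and its log2 fold change was -0.05 (SE 0.33).

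**Figure D4:**
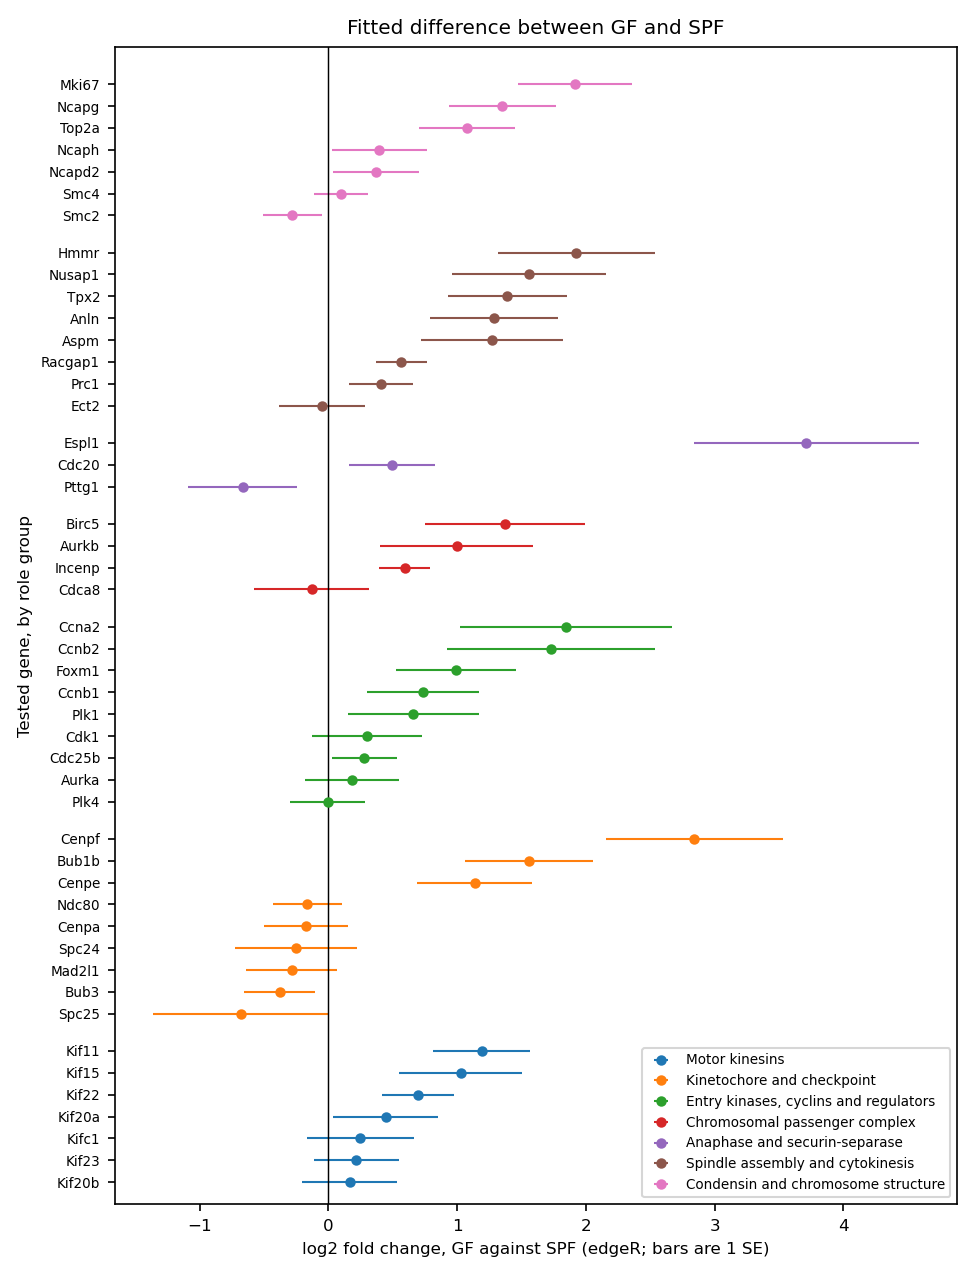
Fitted log2 fold change of GF against SPF for the 47 tested genes, by role group, with bars of 1 SE. Most points lie to the right of 0, while 6 of 9 kinetochore and checkpoint genes lie to the left.

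Of the 7 condensin and chromosome structure genes, 3 were separate between groups and higher in GF, where 16.3% of genes with a count were: Mki67, Top2a and Ncapg. The median log2 fold change was 0.40, and 0.79 without SPF replicate 2. Mki67, the proliferation antigen that coats mitotic chromosomes, had 7.60 and 18.2 CPM in SPF and 49.9 and 47.7 in GF. Its GF libraries were nearly equal and lay far above both SPF libraries, which differed 2.39-fold, and the log2 fold change was 1.92 (SE 0.44, edgeR unadjusted p = 0.00653, adjusted p = 0.855). It was 1.43 without SPF replicate 1 and 2.67 without SPF replicate 2. The remaining SPF library is then alone, so those fits hold no spread between SPF libraries. Topoisomerase II alpha (Top2a), which untangles sister chromatids, had 17.4 and 34.2 CPM in SPF and 61.0 and 47.9 in GF, a log2 fold change of 1.08 (SE 0.37). Without SPF replicate 2 its fold change was 1.64. SPF replicate 1 was the lowest library for both genes.

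The condensin subunits did not share a direction. Ncapg, a regulatory subunit of condensin I, had 2.45 and 2.68 CPM in SPF and 8.27 and 4.87 in GF (1.35, SE 0.41). The other condensin I subunits, Ncaph and Ncapd2, overlapped between groups, with log2 fold changes of 0.40 and 0.37. The ATPase Smc4, common to condensins I and II, overlapped as well, at 0.10. Its partner Smc2 had 41.3 and 46.3 CPM in SPF and 31.8 and 40.4 in GF, a log2 fold change of -0.28 (SE 0.23), and no other gene of the 54 was separate between groups and lower in GF. Exons of Ncapg overlap antisense Lcorl over 944 bases, which had 222 and 358 counts in SPF and 370 and 344 in GF.

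Other mitosis genes were read from 5 further lists of 100 genes, 90 of them tested. Their median log2 fold change was 0.03, with 50 above 0 and 40 below, none past the threshold. At an unadjusted p under 0.05, 4 were higher and 0 lower, where 2.17% and 1.05% of all tested genes were. The median was 0.62 over 21 tested spindle and cytokinesis genes, -0.01 over 29 kinetochore genes, 0.02 over 13 cohesin and further condensin genes, 0.03 over 15 anaphase promoting complex genes, and -0.07 over 12 mitotic inhibitors and MuvB regulators. Of the spindle list, Stil, a centriole assembly protein, had 0.437 and 0.424 CPM in SPF and 2.66 and 1.29 in GF (2.18, SE 0.61). Of the kinetochore list, Gsg2, the histone kinase Haspin, whose gene lies inside Itgae, had 18.6 and 20.4 CPM in SPF and 34.97 and 37.8 in GF (0.90, SE 0.22). As the kit did not mark strand, any reads of Itgae RNA across Gsg2 cannot be told apart from its own, and their part was not tested. Of the MuvB list, the transcription factor Mybl2 had 4.54 and 7.28 CPM in SPF and 13.8 and 13.8 in GF (1.22, SE 0.34). All 3 were separate between groups, which partly follows from naming them for the smallest p of their list. Genes with lower fitted values in GF were also among the 3 smallest p of a list. They included Cdc26 of the anaphase promoting complex (-0.68, SE 0.37), Mis12 of the kinetochore (-0.41, SE 0.21) and Rbbp4 of MuvB (-0.50, SE 0.31). In the MuvB list 5 genes were above 0 and 7 below, with both GF libraries above both SPF libraries for 2 and below them for 4. Of all 100 genes, both GF libraries lay above both SPF libraries for 27 and below them for 11. Of genes with a count, 16.3% lay above and 14.2% below.

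DNA replication genes act before mitosis in the cell cycle and were read as a further list. Of 44, 18 had a higher and 26 a lower mean in GF. Their median log2 fold change was -0.07, and both GF libraries lay above both SPF libraries for 9 and below them for 11. Of all tested genes, 16.8% lay above and 16.4% below. Chaf1a, a histone chaperone subunit, had 3.06 and 4.45 CPM in SPF and 12.0 and 6.66 in GF (1.30, SE 0.44). Prim1, the DNA primase subunit, had 26.0 and 23.9 CPM in SPF and 15.8 and 15.7 in GF (-0.66, SE 0.23). The groups of both genes were separate, in opposite directions, which partly follows from naming them for the smallest p of the list.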

How the data were processed

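Values were deposited as raw read counts, whole numbers for each gene in each of the 4 libraries. CASAVA, TopHat, Picard, featureCounts, Subread and edgeR were named, with build mm10, per the submitters' processing notes; versions, settings and gene models were not given in the sources used here. Libraries came from a TruSeq RNA kit without strand marking, so antisense exon overlaps from GENCODE are named beside many of the genes they touch. Further ones were Cdca8 with 9930104L06Rik (232 bases), Cdc25c with Gm3550 (623 bases) and Cdc20 with Elovl1 (53 bases). Plk1 overlaps Gm44985 (156 bases), Kif22 overlaps Gm31749 (96 bases) and Cdc25b overlaps Spef1 (92 bases). 9930104L06Rik had 324 and 418 counts in SPF and 461 and 346 in GF.

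The deposited counts were fitted with edgeR 4.0.16 in R 4.3.3: TMM scaling, filterByExpr with a minimum count of 10, the quasi-likelihood F test (GF compared with SPF, no covariates), two-sided p-values and Benjamini-Hochberg adjustment over 11271 genes. Standard errors are the absolute log2 fold change over the root of F. CPM uses TMM-scaled library sizes, and a CPM per kb divides by the length of the principal transcript. Intervals of count ratios are exact 95% intervals, conditional on the summed counts. Alternatives were other scalings and tests (DESeq2 1.42.0, limma-voom 3.58.1, the edgeR exact test), no filter, a replicate block, removal of a transcript length trend, and leaving out each library.

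The members and lists were chosen with earlier results of these data known. Values per library are given for up to 4 genes of each role group with the smallest p, for genes with a mean of 10 counts or fewer in SPF, and for tested genes with a lower fitted value in GF. Of each further mitosis or replication list up to 3 genes by smallest p could be named.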

Additional observations from a re-analysis of the deposited data

How the results depend on the processing

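No mitotic gene and no gene in all passed 0.05 in edgeR's quasi-likelihood test under either scaling alternative, without the filter, with limma-voom or with the transcript length trend removed. DESeq2 called 9 genes, 1 of them mitotic, and the edgeR exact test called 9, none mitotic. The labels share replicate numbers between groups without saying that they mark a pair; the difference between replicates 2 and 1 correlated across 11271 genes between SPF and GF (Pearson 0.71, genes not being independent). With the replicate block, 1206 genes were called (6.97% higher, 3.73% lower), 17 of them mitotic: 16 higher, Mki67 with the smallest adjusted p (4.57e-05), and Pttg1 lower. With the block and the length trend removed, 256 were called, 3 of them mitotic (Espl1, Racgap1 and Mki67). Leaving out 1 library, which assumes that the lone library varies like the others, gave 0 to 1327 calls over all genes and 0 to 4 among mitotic genes. The number of mitotic genes with separate groups was then 32 to 40, where 26.4% to 38% of genes with a count were separate in that direction, compared with 16.3% over all 4 libraries, and the median log2 fold change over mitotic genes was 0.43 to 0.63. Ranges of group medians when 1 library was left out were 0.43 to 0.71 for motor kinesins, -0.49 to 0.02 for kinetochore genes, 0.31 to 0.58 for entry genes, 0.51 to 1.09 for passenger genes, 0.21 to 0.72 for anaphase genes, 0.67 to 1.60 for spindle genes and 0.49 to 0.79 for condensin genes. Without the filter, which brings back genes low in SPF, medians were 0.69 for motors, 0.48 for kinetochore genes and 1.54 for anaphase genes. Of 442 fold changes of 34 named genes under an alternative, 403 kept direction and side of the threshold, 25 passed the threshold in the same direction, and 14, of 7 genes, changed sign. Those 7 ranged, when 1 library was left out, over -0.51 to 0.25 for Cenpa, -0.50 to 0.018 for Spc24, -0.71 to 0.033 for Mad2l1, -0.23 to 0.18 for Plk4, -0.58 to 0.20 for Cdca8, -1.15 to 0.042 for Pttg1 and -0.23 to 0.15 for Ect2. With the length trend removed, Cenpa was 0.059 and Cdca8 was 0.027, and with the replicate block as well they were 0.064 and 0.013; the cause was not tested. In the 250 bases before the start alone, TTTGAA was in 19 and both elements in 17 of 48 windows, as the window was shorter. Genes with a few counts are limited by depth: 3 counts are 0.208 to 0.26 CPM.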
